A study of Ovis aries with 91 samples.

Results

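Isolated cardiomyocytes of the right atrial appendage were compared between sheep in the transition state of atrial fibrillation and control sheep. The samples were chosen by their labels, as right appendage cardiomyocytes (RAA) of transition sheep D23, D24 and D27 and of control sheep S3, S4 and C1. They make up 6 of the 18 columns of the cardiomyocyte table, merged from 12 of the 91 samples of the series. Each column is 1 sheep, with its technical replicates already joined. S3 and S4 are labelled sham, while C1 is labelled control and was counted with them. Atrial fibrillation was brought about with a tachypacing device placed in the right atrium, the chamber whose appendage is described here. The labels and design text used here state neither the length of pacing nor what the sham operation involved, nor the age or sex of the animals, nor whether any were pooled. The series also holds chronic sheep, left appendages and whole tissue, which are points of comparison here. The chronic and left cardiomyocyte samples also enter the model that estimates the spread between sheep.

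Atrial cardiomyocytes are the muscle cells that contract the atria and carry the electrical impulse from cell to cell. When they are driven at a fast rate for long, they are known to alter their ion currents, calcium handling and contractile proteins, a process called remodelling. The transition state lies between normal rhythm and lasting fibrillation, so the comparison asks which transcripts had already moved in these cells before the chronic state.

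The deposited table lists Ensembl sheep gene IDs without names, and 0 of its 13262 IDs were found in the RefSeq gene table used here. Genes are therefore given by ID, at most 2 in each direction for a comparison, and no pathway, sequence or cell type marker could be matched to them. The purity of the isolated cardiomyocytes was for the same reason not checked against marker genes. Levels are log2 CPM, the log2 of reads per gene relative to a library size scaled by the authors, so a difference of 1 is a 2-fold change. They are not divided by gene length. The control libraries held 7325726 to 9370698 listed reads and the transition libraries 6760402 to 11118207. Pairs of control sheep correlated at a Pearson's r of 0.960 to 0.967 over 12279 genes, and pairs of transition sheep at 0.935 to 0.963. Genes are no replicates of each other, so these are descriptions.

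Of the 12279 genes with a mean level of 0 or more, 80 (0.652%) differed between transition and control sheep at an adjusted p under 0.05 (limma, Benjamini-Hochberg adjustment over all genes tested). Of these 48 (0.391%) were higher and 32 (0.261%) lower in transition sheep. The higher genes rose by 0.51 to 4.32 on the log2 scale, with a median of 0.96. The lower genes changed by −5.32 to −0.57, with a median of −1.03. The gene at −5.32 had 74 to 87 reads in controls, 40 in D23 and 0 in D24 and D27. The size of its fall thus depends on the 0.5 reads added before the log. Of the 80 genes 2 had under 10 reads in a right library, this one and the gene at 4.32. The size of that rise rests on few control reads as well. A change of at least 2-fold was seen in 23 of the higher and 18 of the lower genes. For all 80 genes every transition sheep lay beyond every control sheep, as was also the case for 1949 of all 12279 genes (15.9%, of which 8.23% above and 7.65% below the controls). A further 108 genes, 63 higher and 45 lower, had an adjusted p between 0.05 and 0.1, so the list has no sharp edge. The count rests on a spread pooled over both appendages and all states, with the left and right samples of a sheep paired. It was 52 with this pairing left out of the model and 9 with the right appendage fitted alone, of which 48 and 8 were among the 80.

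**Figure D1:**
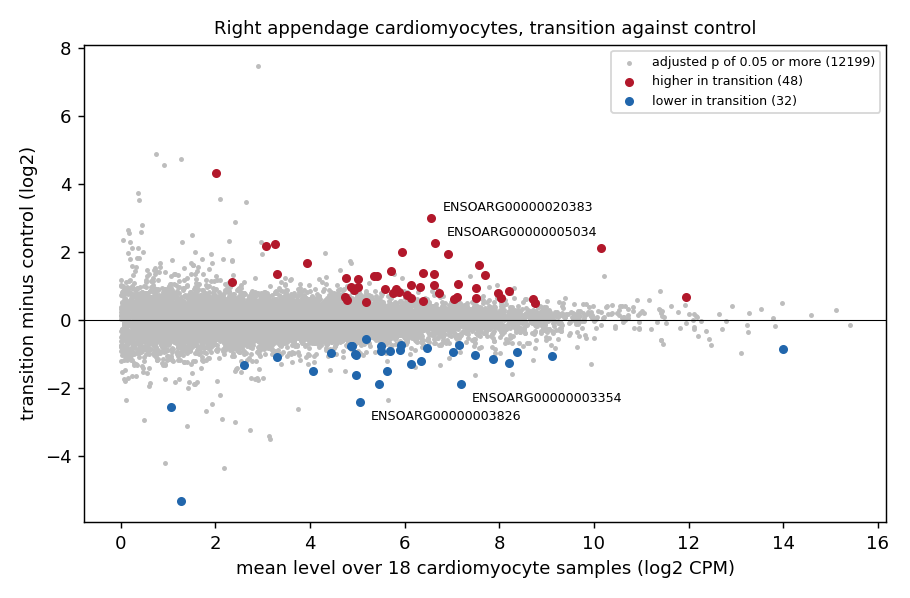
Change between transition and control in right cardiomyocytes (y axis, log2) against the mean level over all 18 cardiomyocyte samples (x axis, log2 CPM), with 1 point per gene. The 48 higher genes are red, the 32 lower genes blue and the 12199 others grey, and the 4 genes described in the text carry their ID.

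The naming rule took called genes over the median level whose groups did not overlap, so their separation follows from the choice. Under this rule the largest increase was that of ENSOARG00000020383. In control sheep its level was 4.11 in S3, 4.12 in C1 and 5.15 in S4, from 132 to 263 reads. In transition sheep it was 6.89 in D23, 7.22 in D24 and 8.26 in D27, from 1145 to 2063 reads. Each transition sheep was thus well above every control, and the nearest pair of sheep lay 1.74 apart. The mean rose from 4.46 ± 0.60 (SD, n = 3) to 7.46 ± 0.71 (SD, n = 3), a change of 2.99 ± 0.34 (SE) or 7.97-fold (limma adjusted p = 0.00145).

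ENSOARG00000005034 was the next. Its control levels were 4.07 in S4, 4.83 in C1 and 5.21 in S3, from 124 to 344 reads. Its transition levels lay closer together, at 6.78 in D23, 6.89 in D27 and 7.19 in D24, from 799 to 1328 reads. The groups did not overlap, and the control sheep spread more widely than the transition sheep. The mean went from 4.70 ± 0.58 (SD, n = 3) to 6.95 ± 0.21 (SD, n = 3), a rise of 2.25 ± 0.32 (SE) or 4.76-fold (limma adjusted p = 0.00377).

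Among the genes that fell, ENSOARG00000003826 came first. Control levels were 6.12 in C1, 6.17 in S4 and 7.23 in S3, from 528 to 1394 reads. Transition levels were 4.44 in D23, 4.47 in D24 and 3.32 in D27, from 67 to 262 reads. S3 stood highest and D27 lowest, and the nearest pair of sheep from the different groups lay 1.65 apart. The change was −2.43 ± 0.33 (SE), a level 5.39-fold lower (limma adjusted p = 0.00274), from 6.51 ± 0.63 to 4.08 ± 0.65 (SD, n = 3).

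ENSOARG00000003354 was the next of the genes that fell, and had control levels of 8.16 in S4, 8.59 in C1 and 9.66 in S3. In transition sheep its levels were 6.79 in D23, 6.83 in D27 and 7.14 in D24. The 3 transition sheep were close to one another, while S3 was more than 1 log2 unit above the other controls. The mean fell from 8.80 ± 0.77 to 6.92 ± 0.19 (SD, n = 3), a change of −1.89 ± 0.38 (SE, limma adjusted p = 0.0330). This call was lost with the right appendage fitted alone (adjusted p = 0.0937), without the pairing by sheep (0.0522), and without S3 (change −1.46, adjusted p = 0.136), C1 (−1.99, 0.0806) or D27 (−1.84, 0.155). Over all its alternatives the adjusted p ran from 0.0150 to 0.155. The other 3 genes kept their calls in each of the 15 alternatives.

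**Figure D2:**
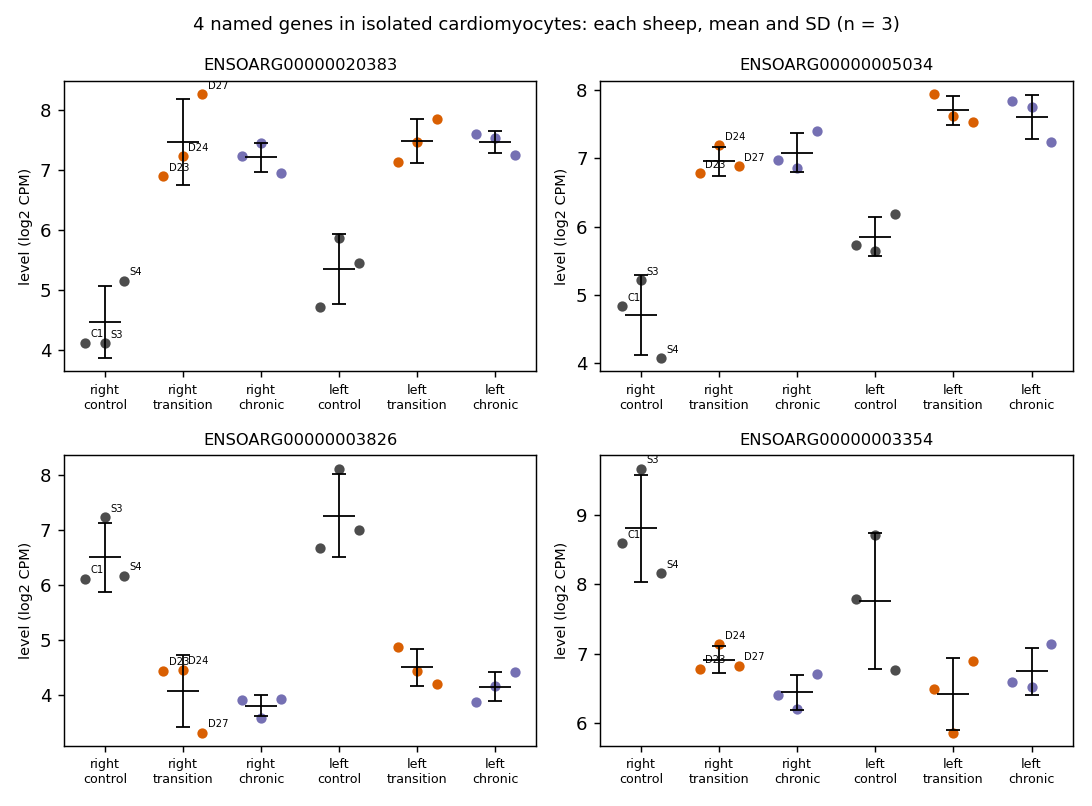
Levels (y axis, log2 CPM) of the 4 named genes in each cardiomyocyte group (x axis), with 1 point per sheep and bars for the mean and SD (n = 3). In all 4 panels the right transition sheep lie apart from the right control sheep, as the naming rule required, and sheep names are given for these 2 groups.

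Genes with many reads made up most of the calls. By quartile of mean level, from the lowest to the highest, 4, 5, 19 and 52 genes passed, or 0.130%, 0.163%, 0.619% and 1.69% of each quartile. The standard error of a change had a median of 0.43 in the lowest quartile and 0.15 in the highest. In the highest quartile 33 genes rose and 19 fell, and the smallest change called was 0.51. In the lowest quartile it took a change of 1.11 or more in size. Of the 490 genes with a mean level of 8 or more, 6 were higher and 4 lower, by 0.51 to 2.13 in size. Of the 320 genes whose change was 1 or more in size, 279 did not pass.

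What the comparison could exclude also depended on the level. The 95% interval of the change lay within a 2-fold change in either direction for 8504 genes (69.3%), and within 1.5-fold for 4088 (33.3%). The first share was 26.5% in the lowest quartile and 90.8% in the highest. Over all genes the median change was −0.017, with 48.1% of genes above 0. Levels are relative to a scaled library, which holds this median near 0, so a general shift of RNA per cell could not be seen. The SD between sheep had a median of 0.23 in controls and 0.27 in transition sheep.

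The 3 transition sheep did not depart from the controls to the same degree. Over the 48 higher genes the median distance from the control mean was 0.82 in D23, 0.98 in D24 and 1.18 in D27. Over the 32 lower genes it was −0.98, −0.95 and −1.31. D27 was the sheep farthest from the controls for 53 of the 80 genes, and D23 the nearest for 50. These genes were called from these same sheep, so their distances describe the calls and do not test them. Over all 12279 genes 633 lay 1 or more from the control mean in D23, 742 in D24 and 1209 in D27.

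The number of calls changed with each sheep that was left out, with both its samples. It rose to 309 without D23, which included 72 of the 80 genes. It fell to 34 without D24 and 9 without D27, of which 27 and 7 were among the 80. Without a control sheep it was 22 (without S4), 21 (without S3) or 26 (without C1). The balance of higher to lower genes turned to 12 against 22 without D24, and was 192 against 117 without D23. With sample quality weights, in which right D23 had a weight of 0.416 and right D24 one of 2.56, 409 genes passed, including 78 of the 80.

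**Figure D3:**
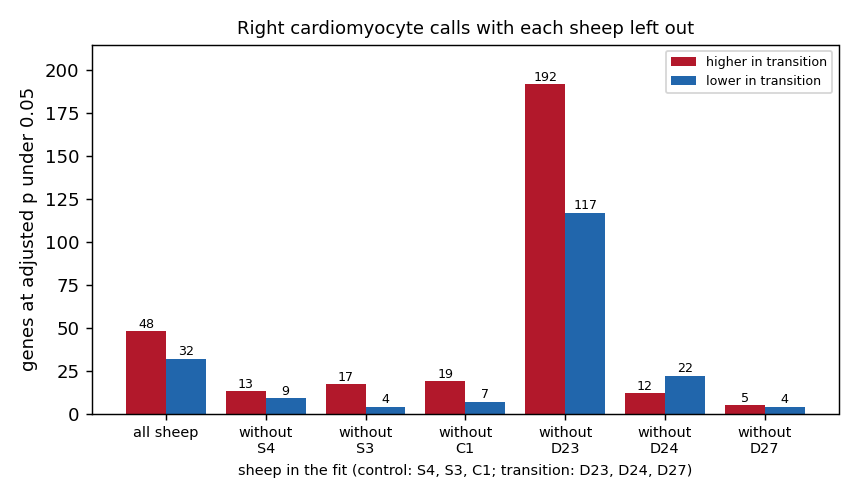
Number of genes past the threshold in right cardiomyocytes (y axis) in the fit of all sheep and with each sheep left out (x axis), split into higher (red) and lower (blue). Leaving out D23 gave 192 and 117 genes, and leaving out any other sheep gave fewer than the 48 and 32 of the fit of all sheep.

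D23 stood on the other side of the controls from D24 and D27 in a list of genes that were higher on the right than on the left. The 565 right-higher genes were at least 2-fold higher on average in the right than in the left cardiomyocytes of the chronic sheep, with the same direction in all 3. Those samples are in neither group mean of the comparison, but they share its estimate of the spread. Against the control mean their median was 0.53 in D23, −0.61 in D24 and −0.71 in D27, beside −0.014, 0.015 and 0.0056 over all genes. In D23, 268 of the 565 were above every control, and in D24 and D27, 327 and 350 were below every control. Over all 12279 genes these numbers were 3053, 3419 and 3926. As a group mean the list had a median change of −0.27, with 0 genes higher and 2 lower past the threshold. This is 0.354% called beside 0.652% over all genes. The median level of the list was 2.13, in the lowest quartile of levels, where 0.130% of genes were called.

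The controls varied in the same list. Its median level was 3.12 in S4, 2.55 in S3 and 2.30 in C1, against 3.14 in D23, 2.04 in D24 and 1.92 in D27. Within single sheep, right minus left, the list had a median of 0.91 in S4, 0.48 in S3 and 0.087 in C1, and of 1.18 in D23, 0.75 in D24 and 0.98 in D27. Right D23 also had the deepest library of the comparison and the largest scaling factor by the authors, 1.09 against 0.976 to 1.03 in the other 5. The part of these differences in the results was not tested.

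With no named markers, genes higher in whole tissue than in isolated cardiomyocytes were followed in place of markers of other cells. The 500 tissue-enriched genes, taken from left samples of chronic sheep D16 and D19, held 0.560% to 0.610% of reads in controls, 0.648% in D23, 0.491% in D24 and 0.475% in D27. Of them 0 were higher and 1 lower, or 0.2% called beside 0.652% over all genes. Their median change was −0.085 beside −0.017 over all genes. The part of other cells in the results was not tested beyond these values. The 500 cardiomyocyte-enriched genes from the same samples included 2 higher and 12 lower genes, or 2.80% called, with a median change of −0.16, beside 0.652% called over all genes. They held 9.91% to 11.6% of reads in controls and 10.1%, 9.02% and 8.61% in D23, D24 and D27. Among the 102 genes that were at least 2-fold higher on the left in chronic sheep, 1 was higher and 2 lower, or 2.94% called. Their median change was 0.15. The median levels of the tissue-enriched and left-higher genes, 1.67 and 1.90, lay in the lowest quartile of levels, where 0.130% of genes were called.

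The left cardiomyocytes of the same 6 sheep allowed the change to be followed on the other side. There 418 genes (3.40%) passed, 228 (1.86%) higher and 190 (1.55%) lower. Of the 80 right genes 63 passed on the left in the same direction, 39 higher and 24 lower, which is 78.8% of the right list and 15.1% of the left list. The left and right samples come from the same animals, so the lists are not independent. The left change had a median of 0.95 over the 48 genes higher on the right and −1.17 over the 32 lower genes, against −0.0050 over all genes. The left count was 121, 114 and 145 without S4, S3 and C1, and 1306, 90 and 100 without D23, D24 and D27. The 17 genes that passed on the right and not on the left, 9 higher and 8 lower, all had a left change of the same sign and an unadjusted p under 0.05 there. Over all 12279 genes 2576 had an unadjusted p under 0.05 on the left, in either direction.

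In the other direction, the 228 genes higher on the left were all above 0 on the right, with a median change of 0.58, and 39 passed. Of the 190 genes lower on the left 186 were below 0 on the right, with a median of −0.63, and 24 passed. Over all genes 48.1% were above 0 on the right, and 0.391% passed as higher and 0.261% as lower. The left medians of these lists, 0.87 and −1.15, come from the samples that chose them and are not a measure of a larger left change. In D23 the medians of the same lists on the right were 0.45 and −0.42, in D24 0.58 and −0.65, and in D27 0.73 and −0.85. The median of each list thus had the same sign in each transition sheep.

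Whether the change differed between the sides was tested for every gene as the left change minus the right change. In limma 0 of 12279 genes passed, with 781 at an unadjusted p under 0.05 (6.36%), and with voom weights on recovered reads 0 passed, with 859 at an unadjusted p under 0.05. The smallest adjusted p in limma was 0.0952 over all genes and 0.131 among the 80. Of the 80, 13 had an unadjusted p under 0.05. These genes were chosen by their right change, which enters the difference. Among the 80 genes the difference between sides had a median size of 0.22, and the interval around it reached a median of 0.43 to either side. For 21 of the 80 the interval included a difference of 2-fold or more, so a side difference of that size was not excluded for them. Without D23, 3 genes passed this test, and without D24, 2 genes passed.

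**Figure D4:**
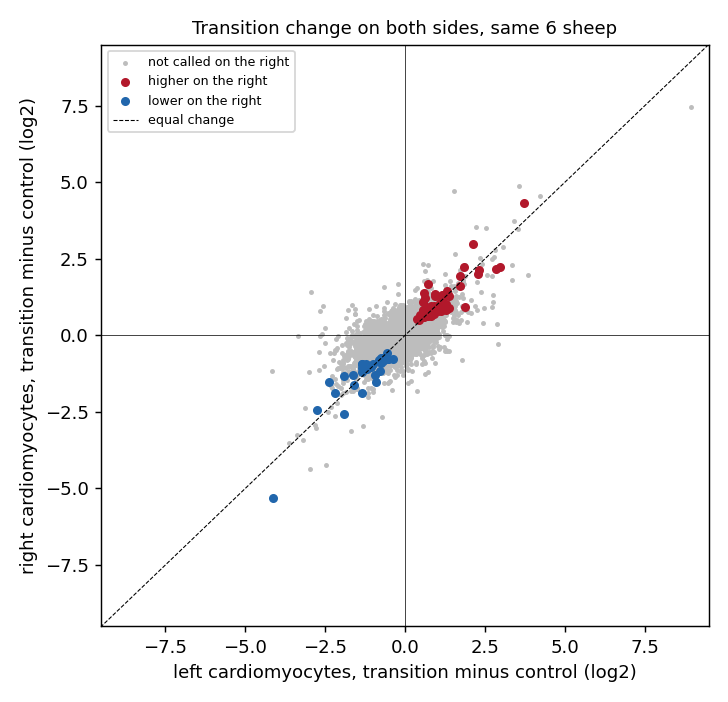
Transition minus control in right cardiomyocytes (y axis, log2) against the same change in left cardiomyocytes of the same sheep (x axis, log2), with 1 point per gene and the dashed line at equal change. The 48 higher (red) and 32 lower (blue) right genes lie in the quadrants of equal direction.

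For ENSOARG00000020383 the left levels were 4.71 to 5.87 in controls and 7.12 to 7.85 in transition sheep, a change of 2.13 ± 0.34 (SE, limma adjusted p = 0.00493). The controls started lower on the right, at a mean of 4.46 against 5.35 on the left, and both sides reached about the same level in transition sheep, 7.46 and 7.48. The left minus right difference of its change was −0.86, with a 95% interval of −1.61 to −0.12, and did not pass over all genes (limma adjusted p = 0.764). ENSOARG00000005034 changed by 1.85 ± 0.32 on the left (SE, limma adjusted p = 0.00697). ENSOARG00000003826 changed by −2.75 ± 0.33 there (SE, limma adjusted p = 0.000447). ENSOARG00000003354 had a left change of −1.33 ± 0.38 (SE), which did not pass (limma adjusted p = 0.0606), and its left minus right difference of 0.55 had an interval of −0.27 to 1.37.

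Sheep resembled themselves across the sides. For each transition sheep the distance of every gene from the control mean was taken on the right and on the left, each against the controls of that side. Across 12279 genes Pearson's r between the right and left distances of the same sheep was 0.491 in D23, 0.670 in D24 and 0.715 in D27. Between sides of different sheep it was 0.022 to 0.479, lowest for right D23 against left D27. These correlations are descriptions, as genes are not independent and the controls on both sides are the same animals.

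**Figure D5:**
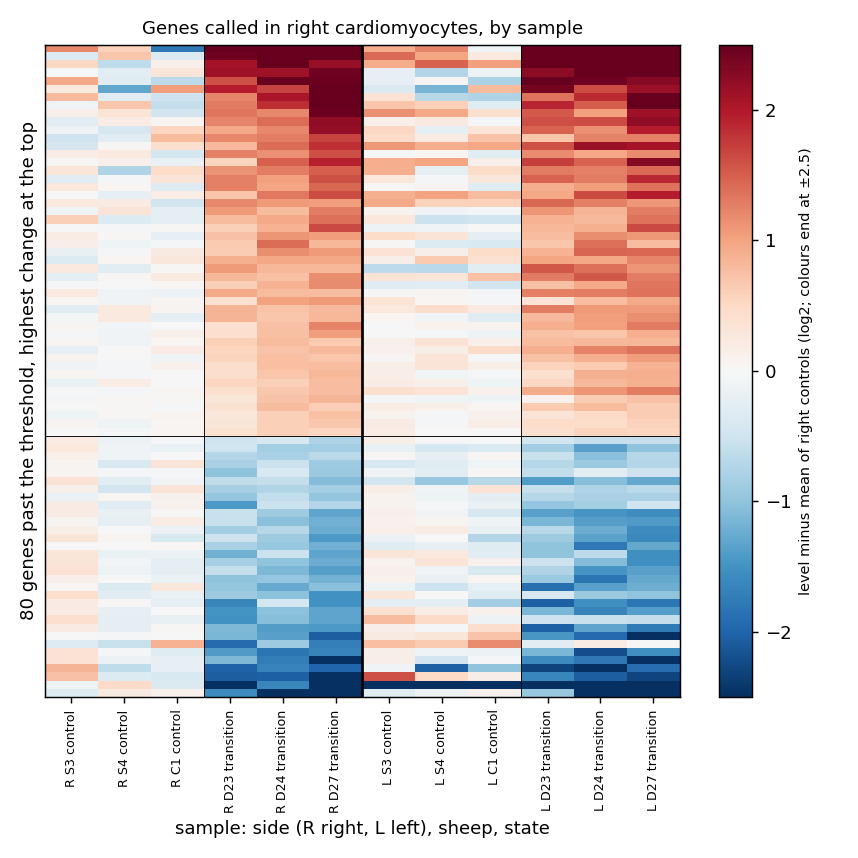
The 80 genes called in right cardiomyocytes (rows, highest change at the top) in the right and left samples of the 6 sheep (columns), as the level minus the mean of the right controls (colour, log2). The 48 upper rows are red in all 3 right transition samples and the 32 lower rows blue. Against the right controls the left transition samples are also above 0 in all 48 upper rows. They are below 0 in 32 lower rows in D23 and D27 and 31 in D24. Differences between the sides in controls enter these left values. Against the left controls, not drawn here, 48 were above 0 and 32 below 0 in each of D23, D24 and D27.

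Whole tissue of the right appendage was measured in the same control sheep, in D24 and D27, and in D30 in place of D23, in a table scaled on its own. There 77 of 12333 genes (0.624%) passed between transition and control sheep, 58 higher (0.470%) and 19 lower (0.154%). The count was 27, 48 and 35 without S3, S4 and C1, and 27, 19 and 46 without D24, D27 and D30. Of the 80 cardiomyocyte genes 79 were measured in tissue and 13 passed in the same direction, 10 higher and 3 lower. This is 16.5% of the measured cardiomyocyte genes and 16.9% of the tissue genes. All 48 higher genes were above 0 in tissue, with a median change of 0.81, while 28 of the 31 lower genes were below 0, with a median of −0.40, beside 50.3% of genes above 0 and a median of 0.0016 over all tissue genes. In all, 12 genes passed in right cardiomyocytes, left cardiomyocytes and right whole tissue, 10 of them higher. Over all genes these 3 comparisons called 0.652%, 3.40% and 0.624%. They share the control sheep and transition sheep D24 and D27, so their lists are not independent.

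Of the 4 named genes ENSOARG00000020383 passed in right whole tissue, where it went from 3.95 to 5.07 in controls to 6.96 to 7.67 in transition sheep, a change of 2.71 ± 0.31 (SE, limma adjusted p = 0.000819). The change of ENSOARG00000005034 in tissue was almost as large, 2.61, but its standard error was 0.79. Its transition levels were 6.57 in D24, 7.79 in D27 and 4.53 in D30, so that D30 lay below control S3 at 4.86 (limma adjusted p = 0.138). ENSOARG00000003826 rested on 7 to 49 reads per right tissue library of control and transition sheep. Its tissue change of −0.88 ± 0.67 (SE) did not pass (limma adjusted p = 0.565). ENSOARG00000003354 changed by −0.47 ± 0.39 (SE) in tissue, where its levels overlapped between the groups (limma adjusted p = 0.592).

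The right cardiomyocytes of chronic sheep D16, D19 and D20 were set beside those of the transition sheep to see whether the levels moved on. Of 12279 genes 1 (0.00814%) passed, with 1098 at an unadjusted p under 0.05, and with voom weights 2 passed. This gene, ENSOARG00000002796, had 82 to 381 reads in transition libraries, 90 to 301 in controls and 0 in all 3 chronic libraries (limma adjusted p = 2.26e-07). A count of 0 still allows an expected count of up to 3 reads. Between transition and control this gene did not pass (change 0.12 ± 0.52 SE, limma adjusted p = 0.946). None of the 80 genes passed between chronic and transition sheep in this limma test, with 17 of them at an unadjusted p under 0.05. Over the genes higher in transition sheep, chronic minus transition ran from −1.83 to 0.62, with a median of −0.17. Over the lower genes it ran from −1.72 to 3.61, with a median of −0.18. The value of 3.61 is that of the gene without reads in D24 and D27. Negative values in the higher genes and positive values in the lower genes are moves back towards controls. The named genes below therefore do not stand for all 80. Without D23 this comparison gave 90 genes, 54 higher and 36 lower in chronic sheep, and without D20 it gave 3.

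ENSOARG00000020383 was at 7.20 ± 0.25 (SD, n = 3) and ENSOARG00000005034 at 7.08 ± 0.29 (SD, n = 3) in chronic sheep. ENSOARG00000003826 was at 3.81 ± 0.19 (SD, n = 3) and ENSOARG00000003354 at 6.44 ± 0.26 (SD, n = 3). Chronic minus transition differences were −0.25, 0.13, −0.26 and −0.47 in this order, with 95% intervals of −0.98 to 0.47, −0.55 to 0.81, −0.97 to 0.44 and −1.27 to 0.33. Each interval included 0, and those of 3 genes excluded a change of 2-fold or more, while that of ENSOARG00000003354 did not exclude a further fall of that size. The transition samples are shared with the comparison that chose these genes.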

How the data were processed

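Libraries were made with a NEBNext Ultra kit, per the labels' protocols. Among the tools in the submitters' processing notes, which give no version or role, are RSEM, cutadapt, bcl2fastq and limma. The aligner, genome build, annotation and use of strand were not given in the sources used here, so overlapping genes and near-identical copies cannot be told apart. The deposited log2 values of the authors are the log2 of whole reads plus 0.5, as CPM of a scaled library. All 238716 cardiomyocyte and 237366 whole tissue values gave whole reads within 0.05, and 0 columns were left unmapped. Chi-square per degree of freedom between sheep of a right group was 15.8 or more in the 6 pairs compared, so none of these pairs was 1 library deposited again.

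Genes with a mean log2 CPM under 0 were left out. The test throughout was that of limma 3.58.1 (R 4.3.3), with its trend of variance on level, on a model of 6 group means over 18 columns, no further pseudocount and a threshold of 0.05 on adjusted p. The sheep, which the labels name for both sides, entered as a random effect (consensus correlation 0.470 in cardiomyocytes and 0.294 in whole tissue), so both samples of a sheep tended to deviate alike. The labels do not say more of how animals were assigned. The p-values set each difference against a spread estimated from these sheep, pooled over both appendages and all states. The scripts were tested on simulated data. Because the values are on a log2 scale, voom weights on recovered reads took the place of a count model. Named genes were the 2 largest increases and decreases among 71 called genes whose level was over the median and whose groups did not overlap. Members, lists and tests were chosen with earlier results of these data known. Alternatives were another scaling, weighting, filter or pseudocount, and each sheep left out. The posterior left atrium was not used here.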

Additional observations from a re-analysis of the deposited data

How the results depend on the processing

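The right cardiomyocyte count of 80 genes was 9 with each appendage fitted alone, 52 with no replicate block (the pairing by sheep left out) and 409 with sample quality weights. Leaving out 1 sheep gave 9 to 309. Library totals, median-of-ratios rescaling, voom, both other filters and 2 CPM added before the log kept it within 1.5 times, with 40 higher and 40 lower under voom. The left count of 418 was 1214 with quality weights and 90 to 1306 with 1 sheep left out. For the side difference quality weights gave 2 genes, and leaving out 1 sheep gave 0 to 3. Chronic against transition on the right gave 2 genes fitted alone, 2 with voom, 11 with quality weights, 2 with no filter, 0 with a filter at 2, and 1 to 90 with 1 sheep left out. The right whole tissue count of 77 was 14 fitted alone, 49 with library totals (32 higher and 17 lower), 700 with quality weights and 19 to 48 with 1 sheep left out. The cause of these differences was not tested. No named gene changed direction. Over the 15 alternatives of each named gene, 5 lost a call, all of ENSOARG00000003354, whose change ran from −2.21 to −1.46 with 1 sheep left out. The library depth of 6760402 reads or more leaves changes in the lowest quartile of levels the least certain.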
